A study of Mus musculus with 18 samples.

Results

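The response of kidney epithelial cells to 24 h of TWEAK was described across the whole transcriptome, by setting 3 samples treated with TWEAK against 3 samples that received vehicle for the same time, out of 18 samples in all. The genes described were the 15521 of 36528 in the files that had more than 10 reads in at least 4 of the 18 samples, whether they rose, fell or did neither. The cells were primary mouse renal proximal tubulo-interstitial epithelial cells (RPTEC) from C57BL/6 animals, obtained commercially and cultured. TWEAK was recombinant mouse protein at 100 ng/mL and the vehicle was DMSO. The remaining samples were the same cells at 6 h and another arm at both times that received TWEAK together with 3 μM of NIK SMI1, which inhibits the kinase NIK. No transgene or deletion was involved, and neither the labels nor the methods name the animals, preparations or cultures behind the 3 samples of a group, so the p-values below measure the spread between these samples, which may be technical.

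TWEAK (gene Tnfsf12) is a cytokine of the TNF superfamily and acts on the receptor Fn14 (gene Tnfrsf12a), which is abundant on injured kidney tubules. Fn14 recruits TRAF2 and the cIAP ubiquitin ligases, which frees the kinase NIK (gene Map3k14) from constant degradation. NIK then drives the cleavage of p100 to p52 and the nuclear entry of p52 with RelB, the non-canonical arm of NF-κB, while the canonical arm through RelA and p50 responds faster and is held in check by IκB proteins that it induces itself. In tubular epithelium TWEAK is known for the release of chemokines and adhesion molecules that draw in leukocytes.

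The 6 samples held between 19711692 and 46721839 reads counted in exons, and values are given as CPM (a gene's reads per 1000000 reads of the library, after scaling by TMM, a composition factor) and tested by the quasi-likelihood test of edgeR with Benjamini-Hochberg adjustment over the 15521 genes. Within a group, counts correlated between samples across genes with a Spearman rho of 0.99707 to 0.9982, and the replicates differed by more than sampling noise, with a chi-square per gene of 2.53 to 5.05 where counting error alone gives about 1. The epithelial identity in the label was borne out by its general markers, all 7 of which were above 1 CPM and summed to 8850.2 to 9029.9 CPM in the vehicle samples and 7798 to 7939 CPM in the TWEAK samples. The proximal tubule label was borne out only in part. Of 10 markers, 8 stayed below 1 CPM in all 6 samples, among them Slc34a1, Lrp2 and Aqp1, and 4 had no read in these samples, namely Slc22a6, Slc22a8, Miox and Kap. The glucose transporter Slc5a2, at 6.28 to 8.27 CPM, and the endocytic receptor Cubn, at 2.59 to 4.52 CPM, were detected. Markers of the loop of Henle and distal tubule summed to at most 0.187 CPM and those of endothelium to at most 0.795 CPM. The 7 fibroblast and pericyte markers summed to 16.8 to 18.8 CPM under vehicle and 12.6 to 18.5 CPM under TWEAK. Of these, 5 were below 1 CPM in all 6 samples, while Col1a1 was at 8.61 to 11.9 CPM and Acta2 at 3.39 to 7.34 CPM. The 9 leukocyte markers summed to 20.7 to 21.8 CPM under vehicle and 23.9 to 25.4 CPM under TWEAK. Of these, 7 were below 1 CPM in all 6 samples, with Ptprc at most 0.298 CPM and Cd3e and Lyz2 at 0, while Cd68 was at 11.8 to 13.9 CPM and Csf1r rose from a mean of 7.91 to 11.6 CPM. The podocyte list, 3 of whose 5 genes were below 1 CPM, summed to 394 to 401 CPM under vehicle and 270.4 to 279 CPM under TWEAK. The part of such markers in the results was not tested, and in bulk RNA fewer cells of a type and less RNA per cell cannot be told apart.

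Part of the samples carried reads from genes of pancreatic islets, and these moved with the comparison. The 16 islet genes checked summed to 27.6, 22.8 and 20.8 CPM in the 3 vehicle samples and to 20.9, 0.769 and 6.53 CPM in TWEAK samples 1, 2 and 3. The 9 samples at 6 h held 23.4 to 44.8 CPM, and the 3 samples with NIK SMI1 at 24 h held 0.371 to 0.595 CPM. Ins2, the insulin gene, had 9.98, 8.13 and 7.14 CPM under vehicle and 6.51, 0 and 1.99 CPM under TWEAK. Of the 12 islet genes tested, 6 were called lower past 2-fold at 24 h although TWEAK sample 1 lay near the vehicle samples. The number called lower was 10 without TWEAK sample 1, 3 without TWEAK sample 2, 4 without TWEAK sample 3 or vehicle sample 1, 1 by DESeq2 and 0 with TWEAK sample 1 as the only treated sample. Whether these reads bear on any other gene was not tested, and where a gene named below belongs to this set its value in TWEAK sample 1 is given. With TWEAK sample 1 as the only treated sample, a setting chosen after the data were seen, 309 genes rose and 359 fell past 2-fold, and 291 and 281 of these were among the genes called with all 3.

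At 24 h, 363 genes (2.34% of those tested) rose past 2-fold and 445 (2.87%) fell past 2-fold at an adjusted p below 0.05. Counted at any size, 2843 genes (18.3%) were higher and 3211 (20.7%) were lower under TWEAK. Most of these changes were small, with 76.4% of the higher and 70.0% of the lower genes changed by less than 1.5-fold. Every TWEAK sample lay above every vehicle sample for 359 of the 363 genes and below for 423 of the 445, where 23.9% and 25.7% of all tested genes separated in the one or the other direction. When the test asked for a change beyond 2-fold itself rather than for any change, 174 genes rose and 154 fell.

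The rises reached further than the falls. Among the genes past 2-fold, 113 rose and 66 fell more than 4-fold, and 51 rose and 10 fell more than 8-fold. The filter on reads drew on more samples with TWEAK, given alone or with NIK SMI1, than with vehicle. A gene near 0 under vehicle could thus pass it more readily than a gene near 0 under TWEAK. The part of this in the difference was not tested. The 363 induced genes made up 0.492%, 0.499% and 0.491% of the CPM in the vehicle samples and 1.37%, 1.36% and 1.39% in the TWEAK samples. The 445 repressed genes made up 1.03%, 1.02% and 1.04% under vehicle and 0.415%, 0.413% and 0.414% under TWEAK. Both sets lay mostly among genes of low level, with a median of 0.782 CPM under vehicle and 2.90 CPM under TWEAK for the induced and of 2.44 and 0.920 CPM for the repressed, and 94 and 136 genes respectively stayed below 1 CPM in both groups. Of the 2556 genes with a mean of 100 CPM or more, 20 rose and 20 fell past 2-fold.

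**Figure D1:**
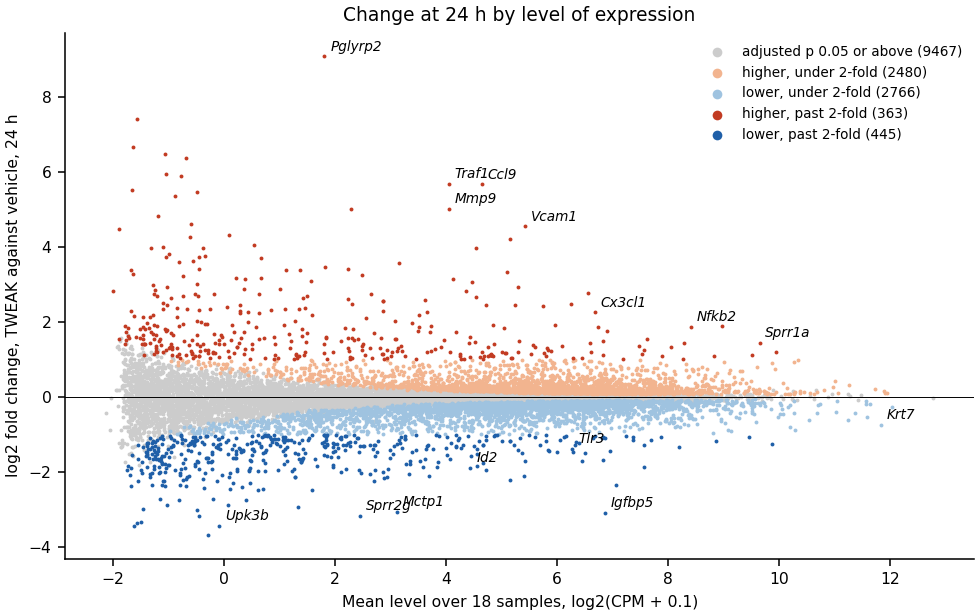
Each point is 1 of the 15521 tested genes, with its mean level over the 18 samples as log2(CPM + 0.1) on the horizontal axis and its log2 fold change between TWEAK and vehicle at 24 h on the vertical axis. Dark red marks the 363 genes that rose and dark blue the 445 that fell past 2-fold, pale colours mark smaller called changes, and Pglyrp2 at 9.07 stands highest, while Krt7 is among the abundant genes with a called fall under 2-fold, at -0.74.

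The sequences upstream of 6 genes are shown because they carry the letters of the κB motif, the DNA element bound by NF-κB dimers. The windows span the 250 bases before the annotated start, from RefSeq on build GRCm38.p6, and the capitals mark each match to the κB consensus on either strand. By the naming rule, promoters were taken from the 15 largest rises and 15 largest falls, and of those with a window 1 of 11 rising and 4 of 12 falling genes held a match within the 250 bases before and 50 after the start. Ccl9 (chr11:83578637-83578886, minus strand), Upk3b (chr5:136038246-136038495, plus strand) and Igfbp5 (chr1:72874866-72875115, minus strand) came from this rule, while Nfkbia (chr12:55492648-55492897, minus strand), Nfkb2 (chr19:46304487-46304736, plus strand) and Cxcl10 (chr5:92348890-92349139, minus strand) were chosen after their values were seen.
Ccl9: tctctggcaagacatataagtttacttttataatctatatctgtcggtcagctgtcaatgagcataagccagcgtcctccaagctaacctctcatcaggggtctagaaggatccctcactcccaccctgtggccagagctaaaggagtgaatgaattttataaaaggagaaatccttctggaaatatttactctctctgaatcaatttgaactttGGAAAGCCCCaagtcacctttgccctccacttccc
Nfkbia: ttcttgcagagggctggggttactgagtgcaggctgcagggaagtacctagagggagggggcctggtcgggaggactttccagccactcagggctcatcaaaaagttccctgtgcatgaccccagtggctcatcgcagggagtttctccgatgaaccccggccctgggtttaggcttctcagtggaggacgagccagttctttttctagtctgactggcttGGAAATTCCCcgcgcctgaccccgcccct
Nfkb2: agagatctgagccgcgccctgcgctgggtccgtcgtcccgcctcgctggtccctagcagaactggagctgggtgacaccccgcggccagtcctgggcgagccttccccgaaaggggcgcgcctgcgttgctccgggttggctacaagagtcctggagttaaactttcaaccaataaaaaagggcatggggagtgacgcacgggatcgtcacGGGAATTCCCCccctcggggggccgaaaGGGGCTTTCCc
Cxcl10: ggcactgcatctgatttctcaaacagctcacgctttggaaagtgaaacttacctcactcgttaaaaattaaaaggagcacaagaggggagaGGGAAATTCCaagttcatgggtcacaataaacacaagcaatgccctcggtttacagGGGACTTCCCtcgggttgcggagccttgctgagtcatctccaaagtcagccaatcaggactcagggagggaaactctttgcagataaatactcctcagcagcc
Upk3b: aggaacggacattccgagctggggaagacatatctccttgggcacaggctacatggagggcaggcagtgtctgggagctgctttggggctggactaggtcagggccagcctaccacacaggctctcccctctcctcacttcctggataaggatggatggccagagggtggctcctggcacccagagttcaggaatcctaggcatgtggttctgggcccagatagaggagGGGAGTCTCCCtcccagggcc
Igfbp5: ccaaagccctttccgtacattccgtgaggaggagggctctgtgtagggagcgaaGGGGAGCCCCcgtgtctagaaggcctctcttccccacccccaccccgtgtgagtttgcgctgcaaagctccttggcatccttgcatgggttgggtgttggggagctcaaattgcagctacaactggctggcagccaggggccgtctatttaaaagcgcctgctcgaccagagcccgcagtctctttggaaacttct
Matches stood 35 bases before the start in Ccl9, 29 in Nfkbia, 39, 38 and 11 in Nfkb2, 159 and 103 in Cxcl10, 21 and 20 in Upk3b, and 196 in Igfbp5, the paired positions in Nfkb2 and Upk3b being overlapping matches. The shares that follow count matches in the 250 bases before and 50 after a start, in any window of a gene. Among all 27025 RefSeq genes with a window, 5.14% held at least 1 match. Among the genes with a window, a match was held by 34 of 258 genes (13.2%) that rose past 2-fold, by 22 of 318 (6.92%) that fell past 2-fold and by 6.36% of the 11228 tested genes. The letters of a second motif, AP-1 (TGACTCA), were held by 34 (13.2%), 26 (8.18%) and 4.94% of the same sets. Among the rises the share was 13.2% for both motifs. Windows were at hand for 71.1%, 71.5% and 72.3% of these sets, under the 80% required here, so the shares are given as a description and were not tested. A match in letters does not show that a factor binds.

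The largest rise was that of Pglyrp2, an amidase that cleaves bacterial peptidoglycan. Its level was 0.0457, 0 and 0 CPM in the vehicle samples and 15.9, 13.8 and 14.2 CPM in the TWEAK samples. The gene was thus all but silent in the vehicle samples, with 2 reads against 1637, a ratio of 609.7 with an exact 95% interval of 168.5 to 5039 that covers counting error only. The log2 fold change was 9.07 (adjusted p = 2.31e-19). Each SE given for other genes is the size of the log2 fold change divided by the square root of the F statistic of the test. It is no direct estimate of error and can fall below counting error where a group holds few reads. A further 5 genes with 1 to 3 reads in all under vehicle were Ido2, an enzyme of tryptophan breakdown, with 1 against 156 reads and a ratio of 116.2 (20.6 to 4619), the secreted Gla protein gene Ucma with 3 against 261 reads and a ratio of 64.8 (21.9 to 316), the predicted genes C730036E19Rik and Gm32605, and Adgb, which encodes androglobin.

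Among genes with a measurable level under vehicle, Traf1, an adaptor of TNF receptors and a known NF-κB target, rose most. It had 1.03, 1.39 and 0.952 CPM under vehicle and 53.7, 57.9 and 56.8 CPM under TWEAK, a log2 fold change of 5.68 ± 0.11 (SE, adjusted p = 1.07e-23). Ccl9, a CC chemokine, moved from 1.46, 1.39 and 1.57 CPM to 72.7, 74.7 and 76.3 CPM (log2 fold change 5.66 ± 0.084 SE, adjusted p = 2.49e-26). The gelatinase Mmp9 moved from 1.83, 1.88 and 1.81 CPM to 59.7, 59.3 and 60.0 CPM (5.02 ± 0.10 SE, adjusted p = 1.2e-23). In all 3 genes every TWEAK sample was above 50 CPM and every vehicle sample below 2 CPM. Vcam1, an adhesion molecule bound by integrins of leukocytes, rose from 6.39, 5.46 and 5.66 CPM to 141, 135 and 141 CPM (4.54 ± 0.075 SE). The rest of the 15 largest rises were Rgs4, a GTPase activator of G proteins, with a log2 fold change of 5.02, and the low-level genes Ccdc33, Zbtb7c, Dock10 and Strip2, with 4.27 to 4.82.

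The largest falls at a mean of at least 1 CPM were of low-level genes with 1 exception. Igfbp5, a secreted binding protein of insulin-like growth factors, had 276, 274 and 279 CPM under vehicle and 31.5, 33.8 and 32.7 CPM under TWEAK. The 3 vehicle samples were all above 270 CPM and the 3 TWEAK samples all below 35 CPM, and the log2 fold change was -3.08 ± 0.049 (SE, adjusted p = 8.16e-26). The membrane protein genes Synpr and Upk3b, a synaptic vesicle protein and a uroplakin, fell by 3.67 and 3.44 on the log2 scale from means of 1.59 and 1.77 CPM. Sprr2g, a small proline-rich protein of cornifying epithelium, fell from 7.44, 5.90 and 8.52 CPM to 0.906, 0.852 and 0.702 CPM. Mctp1, a calcium-binding membrane protein, fell from 13.2, 12.6 and 12.6 CPM to 1.42, 1.60 and 1.52 CPM. Cldn2, the claudin that forms the cation pore of leaky epithelia such as the proximal tubule, fell from 5.34, 4.81 and 6.38 CPM to 1.12, 0.561 and 0.655 CPM (log2 fold change -2.92 ± 0.22 SE, adjusted p = 1.77e-11). For each of these genes the lowest vehicle sample was more than 4 times the highest TWEAK sample. The other members of the 15 were Htr5b, Lrrc26, Pdzrn3, Spata20, Ly6g2, St8sia1, Gm32461, Lhx6 and Khdrbs2, with log2 fold changes of -3.01 to -2.45.

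**Figure D2:**
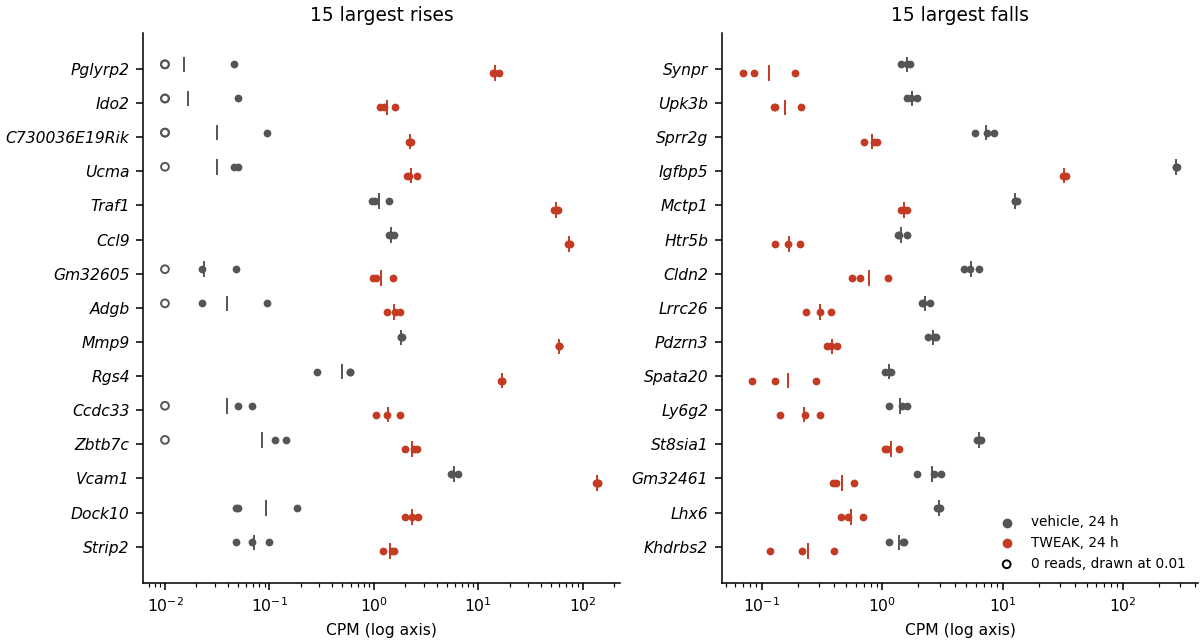
CPM on a log axis in each of the 3 vehicle (grey) and 3 TWEAK (red) samples at 24 h for the 15 genes with the largest rise and the 15 with the largest fall; short vertical bars are group means and open circles are samples with 0 reads, drawn at 0.01 CPM. Only genes without overlap between the groups could be chosen, and Igfbp5 alone among the falling genes is above 100 CPM under vehicle.

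By the amount of RNA, the increases were led by other genes. Sprr1a, a cross-linked envelope protein of squamous epithelium, gained most, from 489.7, 518 and 513 CPM to 1368, 1376 and 1404 CPM, all 3 TWEAK samples lying far above the vehicle samples. Among the other 9 were Sqstm1, the autophagy receptor p62, from a mean of 833 to 1634 CPM, and Lama3, a laminin chain of epithelial basement membrane, from 496 to 1139 CPM. Epcam, an adhesion molecule of epithelial cells, rose from 634 ± 5.61 to 1185 ± 18.9 CPM (SD, n = 3), and Pdgfb, a platelet-derived growth factor chain, from 192 ± 5.13 to 706 ± 17.5 CPM. Msn, Thbs1, Myh9 and the integrin activator Fermt1 were also among the 10, with log2 fold changes of 0.20 to 1.10.

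The 10 largest decreases by amount included 3 keratins of simple epithelium. Krt7 went from 4199, 4334 and 4306 CPM to 2612, 2579.9 and 2518 CPM, and Krt19 from 1418, 1484 and 1448 CPM to 802, 804 and 768 CPM. In both the TWEAK samples were together well under the vehicle samples, and the log2 fold changes were -0.74 ± 0.032 and -0.87 ± 0.033 (SE). Krt18 fell by 0.26 on the log2 scale. The chaperone gene Clu fell from 3193 to 2206 CPM, the calcium-binding protein gene S100a6 from 2785 to 1812 CPM, and Ctla2a, a cysteine protease inhibitor, from 1007 to 423 CPM. Akap12, Ahnak and Anxa1 were also among the 10. Per length, on the authors' RPKM scale, the level of Sprr1a under TWEAK was a mean of 1718 RPKM and that of Krt7 1345.5 RPKM, whereas under vehicle Krt7 stood at 2242 RPKM and Sprr1a at 630.5 RPKM.

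The results were ordered by 26 gene lists of pathways and functions, of which 474 members were tested. Over all of them 155 members (32.7%) rose and 181 (38.2%) fell, beside 18.3% and 20.7% of all tested genes. The lists were chosen with earlier results of these data known, and each is described by its counts at an adjusted p below 0.05 and by its median log2 fold change, beside a median of -0.01 over all tested genes. The counts are to be read beside the 18.3% and 20.7% of all tested genes, which the smaller side of several lists did not exceed.

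**Figure D3:**
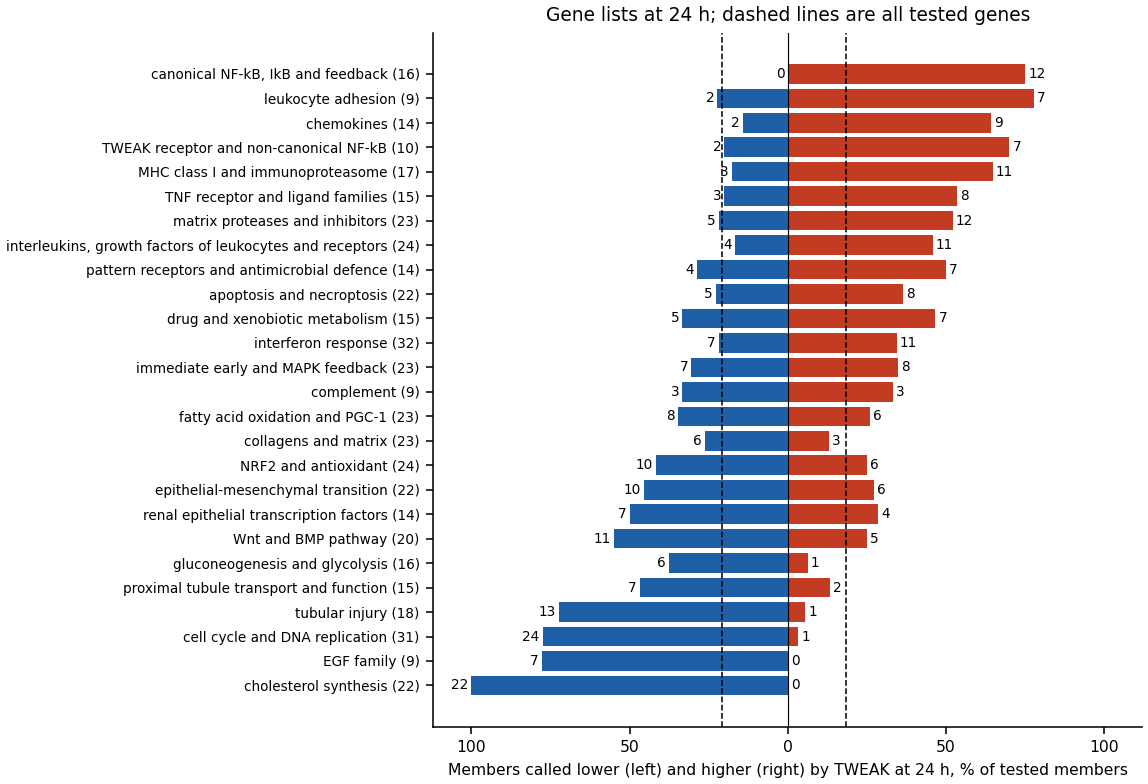
For each of the 26 lists, bars give the share of tested members (number in brackets) called higher (red, right) and lower (blue, left) by TWEAK at 24 h, with the count at the end of each bar. The dashed lines are the shares over all tested genes, 18.3% and 20.7%; the leukocyte adhesion list, with 7 of 9, and the canonical NF-κB list, with 12 of 16, reach furthest to the right, and all 22 cholesterol synthesis genes lie on the left.

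Of the 10 genes of the TWEAK receptor and the non-canonical arm, 7 rose, with a list median of 0.89. Nfkb2, which encodes p100 and p52, had 129, 134 and 123 CPM under vehicle and 483, 468 and 458 CPM under TWEAK (log2 fold change 1.87 ± 0.038 SE, adjusted p = 1.2e-23), a complete separation. Its partner Relb rose by 1.16, the cIAP ligase genes Birc3 and Birc2 by 2.83 and 1.19, and Traf2, Traf3 and the NIK gene Map3k14 by 0.83, 0.54 and 0.95 on the log2 scale. The receptor itself did not pass the test, with 388, 407 and 413 CPM of Tnfrsf12a under vehicle and 418, 405 and 391 CPM under TWEAK, the groups overlapping. Chuk, the gene of IKKα, and Tnfsf12, the gene of TWEAK, were called slightly lower at -0.11 and -0.26, and the number of falling members varied between 0 and 2 over the other settings of the analysis.

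Of 16 genes of the canonical arm and its feedback, 12 rose and none fell at this threshold, with a median of 0.49. The inhibitor genes Nfkbia and Nfkbie rose by 2.77 and 2.93. Nfkbia went from 26.6, 27.2 and 28.3 CPM to 189, 189.5 and 182 CPM, with all TWEAK samples above 180 CPM and all vehicle samples below 30 CPM. Feedback genes of the ubiquitin system rose less, Tnfaip3 (A20) by 0.75 and Tnip1 by 0.91, while Tnip3 rose by 2.02 from a mean of 0.782 CPM. The subunits Nfkb1 and Rela rose by 0.73 and 0.42. Among 15 genes of the TNF receptor and ligand families, 8 rose and 3 fell. Those past 2-fold were all of low level: Tnfsf15 (TL1A) from a mean of 0.0628 to 1.15 CPM, Cd40 from 0.733 to 2.65 CPM, lymphotoxin beta (Ltb) from 0.200 to 0.797 CPM, Tnfrsf9 and the decoy receptor Tnfrsf11b. The death receptor gene Fas, with a log2 fold change of 0.87, lost its call without TWEAK sample 2 (adjusted p = 0.0503), and Tnfrsf21 fell by 0.51.

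Chemokines rose in 9 of 14 and fell in 2 of 14, with a median of 0.83. Beside Ccl9, the increases past 2-fold were Ccl2, which attracts monocytes (log2 fold change 3.61), Cxcl10, which attracts activated T cells (3.46), Ccl5 (3.02), and the 2 membrane-bound chemokines Cx3cl1 (2.25) and Cxcl16 (1.44). Cx3cl1 had 37.1, 37 and 40.1 CPM under vehicle and 179, 181 and 181 CPM under TWEAK. Cxcl16 had 154, 150.4 and 158 CPM under vehicle and 416, 410.2 and 424 CPM under TWEAK, and neither gene had overlapping groups. By level, Cxcl16 reached 162 RPKM and Cx3cl1 56.3 RPKM under TWEAK, against 24.3 RPKM for Ccl9, 9.31 RPKM for Cxcl10, 2.79 RPKM for Ccl5 and 1.48 RPKM for Ccl2. Cxcl14 and the neutrophil attractant Cxcl5 fell by 1.13 and 1.98.

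Of 24 interleukins, leukocyte growth factors and their receptors, 11 rose and 4 fell. Il23a, the p19 chain of interleukin-23, rose from 4.11, 5.06 and 3.90 CPM to 36.6, 36.5 and 35.6 CPM (3.07 ± 0.083 SE). The colony-stimulating factor genes Csf2 and Csf1 rose by 2.26 and 1.02, the receptor genes Il18rap, Il1rl1 and Il5ra by 2.48, 1.81 and 1.52, and Lif by 0.69. In the opposite direction, the alarmin gene Il33 fell from 15.8, 14.0 and 16 CPM to 2.80, 4.38 and 2.85 CPM, no TWEAK sample coming near the vehicle samples (-2.15 ± 0.13 SE, adjusted p = 2.6e-13). The interleukin-1 antagonist Il1rn fell by 0.49. Adhesion molecules for leukocytes rose in 7 of 9. Icam1 rose by 3.41 from a mean of 1.12 CPM, Cd47 by 1.53, the integrin chains Itgb6 and Itgav by 1.25 and 0.70 and the hyaluronan receptor Cd44 by 0.80, whereas Alcam and Jam2 fell by 0.91 and 0.48.

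Antigen presentation by MHC class I moved in smaller steps. Of 17 genes 11 rose and 3 fell, none past 2-fold, with H2-K1, H2-D1 and B2m at 0.72, 0.65 and 0.51 and the tapasin genes Tapbp and Tapbpl at 0.76 and 0.94. H2-K1 and H2-D1 share long stretches of sequence, so how unique reads were split between them is uncertain. Of 32 interferon response genes 11 rose and 7 fell, with a median of 0.04, the falling share being near the 20.7% of all tested genes. Irf5, Socs1, Gbp8 and Parp14 rose past 2-fold, while Irf8, Ifit3 and Ifi44 fell by 1.92, 1.73 and 1.82 from means of at most 2.13 CPM. The complement list had 3 higher and 3 lower of 9, with 2 to 3 higher and 0 to 4 lower over the other settings. C3, the central complement component, rose from 9.82, 8.33 and 8.09 CPM to 20.6, 17.6 and 19.9 CPM, and the call of Cfi, below 1 CPM, was lost in some alternatives. Of 14 pattern receptors and antimicrobial genes 7 rose and 4 fell. Nod2 and Tlr2 rose by 1.31 and 1.17, while Tlr3, the receptor of double-stranded RNA, fell from 129.5, 128 and 134 CPM to between 49.0 and 50.4 CPM (-1.39 ± 0.042 SE, adjusted p = 8.24e-20), and the flagellin receptor gene Tlr5 fell by 0.84 and Tlr4, the receptor of lipopolysaccharide, from 8.22 to 4.12 CPM.

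Matrix proteases and their inhibitors rose in 12 of 23 and fell in 5. Apart from Mmp9 the increases past 2-fold were of Adam19 (1.72), Mmp10 (1.17) and Adamts4 (1.04), all below 3 CPM, and the protease inhibitor gene Timp1 rose by 0.48. The membrane protease gene Mmp15 fell from 366 to 209.8 CPM, and Adamts5 fell by 0.93. Of 23 collagen and matrix genes 3 rose and 6 fell, where 18.3% and 20.7% of all tested genes did. Beside Lama3, the minor fibrillar collagen gene Col5a3 rose by 3.17, and the glomerular and tubular basement membrane chains Col4a3 and Col4a4 fell by 0.53 and 0.46. Of 22 genes of apoptosis and necroptosis, 8 rose and 5 fell, the falling share being near the 20.7% of all tested genes. Casp4, the inflammatory caspase that senses lipopolysaccharide, rose past 2-fold (1.85) but stayed below 1 CPM, Pmaip1 (Noxa) rose by 0.76, and the anti-apoptotic genes Bcl2, Xiap and Bcl2l1 fell by 0.72, 0.45 and 0.37. Bcl2 had 102, 103 and 102 CPM under vehicle and 63.7, 58.2 and 65.2 CPM under TWEAK.

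Genes that mark injured tubules were mostly lower. Of 18, 13 fell and 1 rose, with a median of -0.47, and both counts were the same over the other settings. Left out of this range were the test against 2-fold and the setting with TWEAK sample 1 as the only treated sample. Lcn2 (NGAL), a urinary injury marker, fell from 134, 141 and 144 CPM to 64.8, 63.7 and 70.4 CPM (-1.07 ± 0.07 SE, adjusted p = 8.46e-13). Spp1 (osteopontin) fell by 0.96, Prom1 by 0.87, Gdf15 by 0.56 and Krt20 by 0.54, and the stress factor gene Atf3 rose by 0.84. Havcr1 (KIM-1), with 3.65, 2.73 and 4.0 CPM under vehicle and 3.41, 3.24 and 3.02 CPM under TWEAK, did not pass the test, and neither did Sox9, Vim or Cdkn1a.

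**Figure D4:**
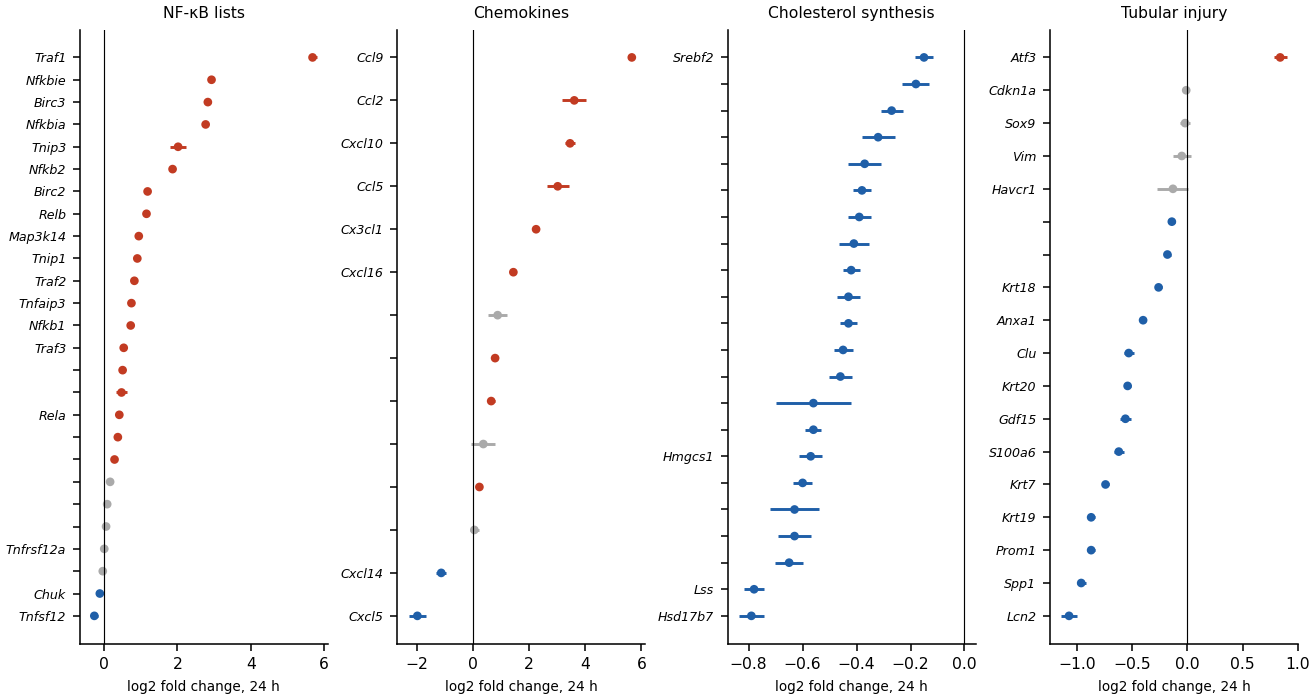
Log2 fold change at 24 h (horizontal axis) for each tested member of the 2 NF-κB lists, the chemokines, the cholesterol synthesis genes and the tubular injury genes. Bars are the SE derived from the F statistic, which can fall below counting error where a group holds few reads. Red and blue are called higher and lower and grey is not called, and members not named in the text carry no label. The horizontal scales differ between panels; the cholesterol genes all lie between -0.79 and -0.15 while Traf1 reaches 5.68.

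The list of epithelial-mesenchymal transition had 6 of 22 higher and 10 lower. The repressor genes Zeb1 and Snai1 rose by 2.48 and 1.33 and Tgfb2 by 2.29, Zeb1 from 1.78, 2.08 and 2.19 CPM to 11.2, 10.9 and 11.1 CPM. Of its genes of cell junctions, Cldn2 fell as above, Tjp1 (ZO-1) by 0.73 and Ocln by 0.46, Epcam rose and Cdh1 (E-cadherin) changed by only -0.11. Vim and Fn1, at -0.05 and -0.03, were not called. Of 15 tested genes of proximal tubule transport 7 fell and 2 rose. The sodium bicarbonate cotransporter gene Slc4a4 fell from 195, 192 and 189.9 CPM to 84.3, 86.3 and 91.6 CPM, and the amino acid transporter gene Slc6a19 fell by 0.89. The 2 rises were of the monocarboxylate transporter gene Slc16a9, from a mean of 0.479 to 1.99 CPM, and of Cyp27b1, the enzyme that activates vitamin D, from 0.197 to 0.518 CPM. Slc2a2, which islets also express, and Ggt1 were called lower below 2 CPM and lost their calls in some alternatives. Among 14 transcription factors of renal epithelium, Gata3 rose by 2.27, from 0.369 to 1.87 CPM, Elf3 and Ehf fell by 1.29 and 0.76, and Pax2 and Pax8, kidney lineage factors, fell by 0.48 and 0.32.

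Cholesterol synthesis was the most uniform list. All 22 genes of the mevalonate and sterol pathway and its SREBP-2 control fell, by 0.15 to 0.79 with a median of -0.44, and all 22 were called under every other setting in which the lists were recounted (the test against 2-fold was not), except with TWEAK sample 1 as the only treated sample, where 18 were called. Hmgcs1, which makes HMG-CoA, had 341, 326 and 327 CPM under vehicle and 229.7, 221 and 221 CPM under TWEAK. For this gene, as for all 22, every TWEAK sample was below every vehicle sample. Lss and Hsd17b7 fell most, by 0.78 and 0.79, and Srebf2 itself by 0.15. None of the 22 was past 2-fold, so that none appears among the 445.

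Other metabolic lists were divided. Of 23 genes of fatty acid oxidation and PGC-1, 6 rose and 8 fell, with Pparg, the adipogenic nuclear receptor, lower by 1.97 and Pdk4, which restrains pyruvate oxidation, higher by 1.40. The coactivator gene Ppargc1a, with means of 0.580 and 0.246 CPM, was called lower (adjusted p = 0.0244), and this call was lost when reads were thinned to the smallest library and without vehicle sample 1 or 2 or TWEAK sample 2 or 3. Of 16 genes of gluconeogenesis and glycolysis 6 fell and 1 rose. Of 24 NRF2 and antioxidant genes 6 rose and 10 fell. Both subunits of the enzyme that starts glutathione synthesis, Gclc and Gclm, fell, by 0.83 and 0.44, as did Gsr and the secreted peroxidase Gpx3, the last from 571 to 306 CPM, while the cystine transporter gene Slc7a11 rose by 1.02 and Hmox1 by 0.42. In drug metabolism, 7 of 15 rose and 5 fell. The efflux pump gene Abcb1a rose from 3.81, 2.48 and 3.38 CPM to 19.7, 19.6 and 21.1 CPM. Ugt1a1 and 3 other Ugt1a genes rose by 1.12 to 1.14, but these genes share exons, so that they stand for 1 locus and the split of reads is uncertain. Fmo2, a flavin monooxygenase, fell by 2.33 and the cytochrome gene Cyp2s1 by 1.93.

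Cell cycle genes fell by small amounts. Of 31, 24 fell and 1, the inhibitor gene Cdkn2b, rose, with a median of -0.20 and 19 to 25 falling members over the other settings, the lowest without TWEAK sample 2, except with TWEAK sample 1 as the only treated sample, where 15 fell. The G1 cyclin genes Ccnd2 and Ccne1 fell by 0.69 and 0.58, and the proliferation genes Mki67, Top2a and Rrm2 by 0.32, 0.31 and 0.35. Immediate early and MAPK feedback genes were divided, with 8 higher and 7 lower of 23: Myc, Jun and Fosl2 rose by 0.66, 0.64 and 0.71, and Dusp6 and Egr3 fell by 0.65 and 1.23. None of the 9 EGF family genes rose and 7 fell, including the ligand genes Ereg and Areg by 0.95 and 0.63 and the receptor gene Egfr by 0.38. Of 20 Wnt and BMP pathway genes 11 fell and 5 rose. Id2, a target of BMP signalling, fell from 38.3, 36.5 and 43.2 CPM to 11.7, 10.6 and 9.57 CPM, the BMP antagonist gene Grem1 fell by 1.48, and Bmp2 and Wnt11 rose by 1.99 and 1.57.

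The response at 24 h was then set beside that at 6 h, which has vehicle samples of its own. At 6 h, 271 genes (1.75%) rose and 84 (0.541%) fell past 2-fold. Of the 363 genes induced past 2-fold at 24 h, 203 (55.9%) were so at 6 h, which is 74.9% of the 271. Of the 445 repressed, 51 (11.5%) were so at 6 h, which is 60.7% of the 84. For the 363 induced genes the median effect was 1.55 at 24 h and 1.16 at 6 h on the log2 scale, and for the 445 repressed genes -1.40 and -0.54. As the genes were picked at 24 h, a lower median at 6 h is in part given by the choice.

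The difference itself was tested as the effect at 24 h minus that at 6 h. Across all tested genes it was above 0 for 503 (3.24%) and below 0 for 880 (5.67%). Among the 445 repressed genes it was below 0 for 219 (49.2%) and above 0 for none, and among the 363 induced genes it was above 0 for 102 (28.1%) and below 0 for 3. Both sets were picked by the 24 h values that enter this difference, so its direction within them is in part given by the choice. Mmp9 rose by 2.13 at 6 h and 5.02 at 24 h on the log2 scale, a difference of 2.88 ± 0.15 (SE, adjusted p = 6.02e-13). Its mean was 3.83 and 16.7 CPM in vehicle and TWEAK samples at 6 h and 1.84 and 59.7 CPM at 24 h. The neurotrophin receptor gene Ngfr, a member of the TNF receptor superfamily, went from 4.57, 4.71 and 5.76 CPM to 78.4, 75.8 and 76.4 CPM at 24 h, with log2 fold changes of 2.09 at 6 h and 3.96 at 24 h. Col5a3, at 0.38, was not called at 6 h (adjusted p = 0.282) and rose by 3.17 at 24 h. In contrast, Ccl9, Vcam1 and Nfkb2 had differences of 0.31, 0.33 and -0.04, none past an adjusted p of 0.05.

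Among genes past 2-fold with a mean of at least 1 CPM in the higher group, the falling genes with the largest difference were Upk3b, Mctp1, Sprr2g, Chga, Synpr, Ins2, Spata20 and Slc16a12. Mctp1 fell by 0.44 at 6 h and 3.07 at 24 h, a difference of -2.63 ± 0.15 (SE, adjusted p = 2.58e-12). Its mean was 12.9 CPM in vehicle samples at 6 h and 12.8 CPM at 24 h, and 9.54 and 1.51 CPM in the TWEAK samples. Igfbp5 fell by 1.30 and 3.08, with vehicle means of 155 and 276 CPM at 6 and 24 h, so that its vehicle level differed between the times as well. Lcn2 was not called at 6 h (0.16, adjusted p = 0.0677) and fell at 24 h, a difference of -1.23 ± 0.094 (SE, adjusted p = 4.2e-10), and its vehicle means were 368 and 139.6 CPM. Chga and Ins2 are islet genes, and with TWEAK sample 1 as the only treated sample their log2 fold changes at 24 h were -0.65 (adjusted p = 0.243) and -0.40 (adjusted p = 0.391). Slc16a12 had 0.604, 0.187 and 0.398 CPM in TWEAK samples 1, 2 and 3, was not called with sample 1 alone (adjusted p = 0.173), and whether it shares the source of the islet reads was not tested.

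**Figure D5:**
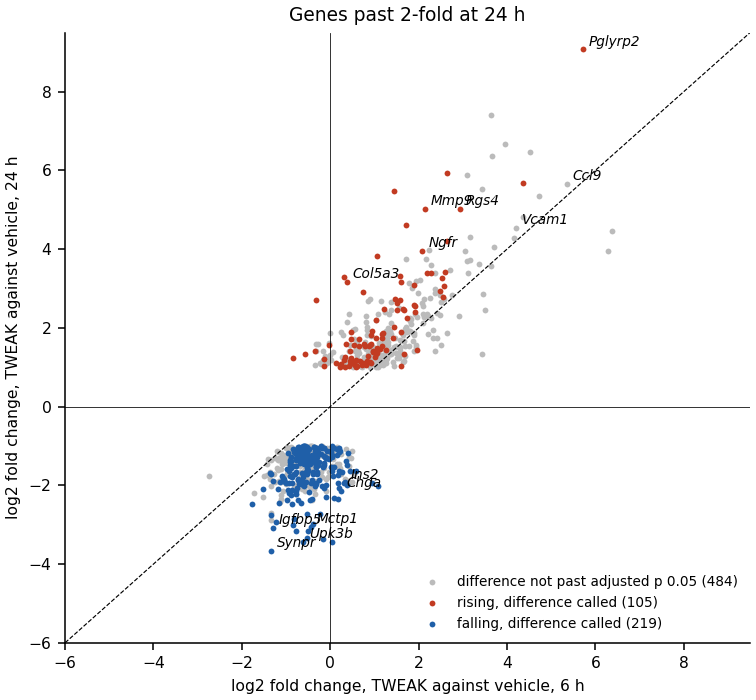
Log2 fold change between TWEAK and vehicle at 6 h (horizontal) and 24 h (vertical) for the 363 genes that rose and the 445 that fell past 2-fold at 24 h; the dashed line marks equal change. Coloured points differ between the times at an adjusted p below 0.05: 102 rising genes above and 3 below the line, and 219 falling genes below it. The genes were picked at 24 h, so the side of the line is in part given by the choice.

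In the arm given TWEAK with NIK SMI1 at 24 h the induced genes made up 0.860%, 0.876% and 0.865% of CPM and the repressed genes 0.654%, 0.625% and 0.627%, between the values of the vehicle and TWEAK samples. Both sets were picked by the values of these same vehicle and TWEAK samples, so a place between them is in part given by the choice. The values are given side by side, and no test of a difference is given. Mean CPM under vehicle, TWEAK and TWEAK with NIK SMI1 was 1.12, 56.2 and 10.4 for Traf1. It was 5.84, 139 and 19.6 for Vcam1. It was 276, 32.7 and 81.1 for Igfbp5 and 139.6, 66.3 and 60.0 for Lcn2.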

How the data were processed

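Expression was measured by RNA-seq in 18 samples of primary mouse RPTEC, 3 in each of 6 groups. Using HTSeqGenie, the authors mapped the reads by GSNAP (NCBI mouse build 37). Their deposited tables give, for each Entrez gene, the raw count of unique reads in exons, the exonic width and an RPKM value, a count scaled by width and depth. The counts were used for all tests and the deposited RPKM for levels between genes. Totals ran from 18040966 to 51956444 reads. Genes with more than 10 reads in at least 4 samples were kept (15521 of 36528), 93.86% of which had a symbol by Entrez ID in RefSeq or GENCODE tables. edgeR 4.0.16 in R 4.3.3 fitted the 6 groups together (TMM, glmQLFit, glmQLFTest), with adjusted p below 0.05 as the threshold, and the script was tested on simulated data. The methods state DESeq2, which was run here as an alternative (version 1.42.0), with other scalings, filters and samples. Genes were named as the 15 largest rises and falls in fold among genes past 2-fold with no overlap and at least 1 CPM, the 10 largest in CPM, the 8 largest differences from 6 h in each direction (past 2-fold at 24 h and at least 1 CPM in the higher group), and members of gene lists, some of which are not reported here. The members and lists were chosen with earlier results of these data known.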

Additional observations from a re-analysis of the deposited data

Results flagged for a closer look

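These results stand out because the response to TWEAK at 24 h differed from that at 6 h by a test of the difference itself (effect at 24 h minus effect at 6 h, edgeR, adjusted p below 0.05), which held for 503 genes above 0 and 880 below 0. Named are genes past 2-fold at 24 h with a mean of at least 1 CPM in the higher group. Among the rising genes the log2 difference was 4.03 for the predicted gene Gm32605, 3.35 for Pglyrp2, 2.89 for the zinc finger gene Zbtb7c, 2.88 for Mmp9, 2.79 for Col5a3, 2.76 for the GDNF family receptor gene Gfra2, 2.09 for Rgs4 and 1.88 for Ngfr. Among the falling genes it was -2.83 for Upk3b, -2.63 for Mctp1, -2.39 for Sprr2g, -2.38 for Chga, -2.33 for Synpr, -2.26 for Ins2, -2.22 for Spata20 and -2.21 for the monocarboxylate transporter gene Slc16a12. Chga and Ins2 belong to the islet genes whose reads were low in TWEAK samples 2 and 3 at 24 h, and with TWEAK sample 1 alone their differences were -0.89 (adjusted p = 0.315) and -0.72 (adjusted p = 0.318). With that sample alone the differences of Zbtb7c, Gfra2, Spata20 and Slc16a12 did not pass the threshold either, at adjusted p values of 0.0705, 0.0983, 0.0922 and 0.122.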

How the results depend on the processing

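Most counts stayed within 1.5 times under DESeq2, other scalings, other filters, thinning of reads to the smallest library and the use of the 6 samples alone. Leaving out 1 sample at a time gave 342 to 358 genes higher and 413 to 482 lower past 2-fold, 2322 to 2546 higher and 2733 to 3023 lower at any size, 349 to 430 and 708 to 842 genes with a difference between 24 h and 6 h above and below 0, and 145 to 151 higher and 165 to 175 lower list members. A test against the 2-fold threshold itself gave 174 and 154 genes, fewer by its construction. With TWEAK sample 1 as the only treated sample, chosen after the data were seen and assumed to vary like the other groups, 1783 genes were higher, 1913 lower, and the difference between the times was above 0 for 251 and below 0 for 463, with fewer samples in the fit. For 203 single genes, 2802 of 2842 recomputed values kept their call and direction, 40 lost the call, among 14 genes, and 0 reversed. Chga and Ins2 lost their calls under DESeq2 (adjusted p = 0.143 and 0.283). No paired analysis was possible because the labels give no replicate numbers. Low counts limit genes below 1 CPM.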

Other observations

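Several gene families outside the lists were looked at after their values were seen, and are given as values only. Gjb2 and Gjb5, connexins that form gap junctions, rose at 24 h from means of 4.20 to 10.9 CPM and 0.961 to 2.88 CPM. Of 17 tested keratins 9 fell and 3 rose, the rising ones being Krt16 (log2 fold change 3.70), Krt17 (1.90) and Krt12 (1.07), all below 1 CPM under vehicle. Of 4 insulin-like growth factor binding proteins, Igfbp3 and Igfbp4 fell with Igfbp5, from 315 to 182 CPM and from 368 to 249.8 CPM, and Igfbp7 rose from 464 to 576 CPM. Of 30 potassium channel genes 11 fell and 5 rose, among them Kcnk5, an acid-sensitive channel of the proximal tubule, which fell from 62.8 to 28.1 CPM. Of 10 claudins 6 fell and 1, Cldn1, rose by 0.43 on the log2 scale. Over all tested genes 18.3% rose and 20.7% fell at the same threshold. Rises among the keratins, potassium channels and claudins were no more frequent than that.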
